A study of Homo sapiens with 4 samples.

Results

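The cornified envelope and S100 genes of KYSE30 cells are described here across a knockdown of YY1. KYSE30 is a human cell line derived from an esophageal squamous cell carcinoma (ESCC). YY1 is a DNA-binding zinc finger protein that can activate or repress transcription. Members were the protein-coding entries of the count table whose symbols name a small proline-rich protein (SPRR), a late cornified envelope protein (LCE) or an S100 protein, together with a fixed set of further envelope genes such as IVL, FLG, TGM1, EVPL, PPL, SCEL and CNFN. They came to 34 of 30716 genes. Of these, 24 had enough counts to be tested and 10 did not. S100PBP entered by its name, although it encodes a protein that binds S100P and is no S100 protein itself. S100A8 was listed as a processed transcript and S100A11P2 as a pseudogene, so neither is a member. FLG2, CRNN, TGM3, loricrin, S100B, S100Z and S100A12 are not analysed here.

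RNA was sequenced from 4 libraries. The shNC group (2 libraries) carried a negative-control hairpin, and the shYY1 group (2 libraries) a hairpin directed at YY1. Per the labels' protocols, all cells were grown in DMEM with serum and knockdown cells were selected as stable lines with puromycin, and how many hairpins or clones were used is not given in the sources used here. Nothing says that replicates were separate cultures, so p-values rest on the spread between libraries alone, which may be technical. RNA levels were measured, not protein, and fewer cells with a transcript cannot be told apart from less of it per cell.

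The stratified squamous epithelium of esophagus and skin builds a cornified envelope under the membrane of its outermost cells as they differentiate. Transglutaminases cross-link involucrin, the plakins envoplakin and periplakin, and small proline-rich proteins into a scaffold, to which loricrin, filaggrin products and LCE proteins are added in epidermis. S100 proteins are small calcium-binding proteins with paired EF-hand motifs. Many of them, with IVL, the SPRR and LCE genes and filaggrin, lie side by side on chromosome 1 in the epidermal differentiation complex.

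Promoter sequences are shown for the 4 members that rose and for SPRR1B and SCEL, the members next closest to the threshold. Each is the stretch of 250 bases before the RefSeq transcript start (GRCh38.p14), 5′ to 3′ on the gene's own strand. Capitals mark matches on either strand to TGANTCA, the core of the AP-1 binding motif, and to TATAAA, the TATA box. Positions are chr1:152908296-152908545 (+) for IVL, chr1:152983831-152984080 (+) for SPRR1A, chr1:153030953-153031202 (+) for SPRR1B, chr1:153001499-153001748 (+) for SPRR3, chr1:153616326-153616575 (-) for S100A14 and chr13:77535456-77535705 (+) for SCEL.
IVL: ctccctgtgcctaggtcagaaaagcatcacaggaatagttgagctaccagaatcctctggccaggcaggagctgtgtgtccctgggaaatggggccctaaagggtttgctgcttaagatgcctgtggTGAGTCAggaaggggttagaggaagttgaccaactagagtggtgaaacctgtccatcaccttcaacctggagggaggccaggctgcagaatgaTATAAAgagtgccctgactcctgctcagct
SPRR1A: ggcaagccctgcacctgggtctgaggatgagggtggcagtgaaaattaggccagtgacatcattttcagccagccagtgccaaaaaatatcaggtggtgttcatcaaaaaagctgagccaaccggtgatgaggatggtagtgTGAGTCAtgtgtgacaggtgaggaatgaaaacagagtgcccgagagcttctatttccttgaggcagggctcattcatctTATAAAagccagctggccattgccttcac
SPRR1B: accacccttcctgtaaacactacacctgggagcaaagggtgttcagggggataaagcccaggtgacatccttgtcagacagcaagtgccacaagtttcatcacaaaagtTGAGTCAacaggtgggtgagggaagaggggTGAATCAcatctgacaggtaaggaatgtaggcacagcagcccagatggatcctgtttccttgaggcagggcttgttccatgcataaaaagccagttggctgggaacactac
SPRR3: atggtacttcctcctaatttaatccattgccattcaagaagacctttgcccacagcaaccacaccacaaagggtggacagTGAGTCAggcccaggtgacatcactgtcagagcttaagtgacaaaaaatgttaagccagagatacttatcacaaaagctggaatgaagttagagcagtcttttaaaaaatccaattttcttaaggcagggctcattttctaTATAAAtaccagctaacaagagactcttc
S100A14: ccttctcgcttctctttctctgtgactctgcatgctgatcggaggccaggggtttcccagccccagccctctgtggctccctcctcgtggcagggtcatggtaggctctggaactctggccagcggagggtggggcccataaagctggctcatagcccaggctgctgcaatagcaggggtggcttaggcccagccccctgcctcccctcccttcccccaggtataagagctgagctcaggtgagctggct
SCEL: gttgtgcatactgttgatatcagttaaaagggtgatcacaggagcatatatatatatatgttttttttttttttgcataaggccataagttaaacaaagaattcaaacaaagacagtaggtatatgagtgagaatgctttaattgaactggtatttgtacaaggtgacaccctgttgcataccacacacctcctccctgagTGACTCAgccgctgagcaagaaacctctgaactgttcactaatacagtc

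IVL, SPRR1A and SPRR3 each held 1 TGANTCA match, beginning 123, 108 and 170 bases before the start. SPRR1B held 2, at 141 and 111 bases before the start, and SCEL held 1 at 49 bases. The S100A14 window held neither TGANTCA nor TATAAA. IVL, SPRR1A and SPRR3 had TATAAA 29 or 30 bases before the start, whereas the SPRR1B window had none. Of the 29 members with a RefSeq promoter, 12 held TGANTCA and 14 held TATAAA, against 6.60% and 11.1% of all 27305 RefSeq promoters. The YY1 word GCCATNTT, searched on both strands, was in 0 of the 29 and in 3.91% of all promoters. For only 29 promoters, 0 is near that share, and bases after the start were not searched. TGANTCA also lay before genes that were not called, among them S100A2 (52 bases), S100A3 (225 bases), FLG (79 bases) and S100PBP (149 bases). The 3 motifs were chosen with the results in view, they do not overlap one another in these windows, and a match is a description of letters, not a bound site.

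YY1 itself (ENSG00000100811) had 8147 and 7960 counts in shNC, and its shYY1 counts were 2606 and 2344. Scaled by library total and TMM factor (CPM), this was 113 ± 4.23 (SD, n = 2) against 35.7 ± 1.96 (SD, n = 2), a log2 fold change of -1.67 ± 0.088 (SE) with an adjusted p of 6.18e-05 (edgeR quasi-likelihood test, Benjamini-Hochberg adjustment). Libraries held 67390336 to 72499865 counts. Of the squamous markers, TP63 stood at 44.6 to 53.5 CPM and KRT13 at 23.0 to 26.6 CPM, but the basal keratin KRT5 had only 25 to 45 counts and KRT14 only 256 to 337. The summed squamous list was 890 and 849 CPM in shNC and 1060 and 1075 in shYY1, with 1 of 10 genes called: PERP, a desmosome-associated protein, was higher by 0.70 on the log2 scale (adjusted p = 0.00197 by edgeR). PTPRC, which marks all leukocytes, and SOX10, which marks melanocytes and Schwann cells, were at 0 in all 4 libraries. The summed stromal, endothelial and retinal markers were at most 7.15, 4.87 and 0.457 CPM, with none called. The retinal list was measured because the extraction text of the labels mentions that tissue.

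Among the 24 tested members, 4 rose in shYY1 and 0 fell: IVL, SPRR1A, SPRR3 and S100A14. That is 16.7% called, against 9.94% of all 18035 tested genes (5.05% higher and 4.90% lower). The 24 members had a median log2 fold change of 0.13, against -0.01 over all tested genes, and 17 were positive and 7 negative. Among genes at 5 CPM or more, the median was 0.10 at up to 1000 exon bases. It was 0.07 at 1000 to 2000 and 0.08 at 2000 to 4000. The 4 called members have 270 to 2153 exon bases, and the part of gene length in the members' values was not tested. Both shYY1 libraries lay on one side of both shNC libraries for 15 members (62.5%), 11 above and 4 below, where 54.9% of all tested genes did so. Of the 34 members, 15 reached 5 CPM in a group, 18 stayed under 2 CPM in both, and 2 had 0 counts in every library. Members that passed the count filter are the more abundant ones, so these counts do not speak for all 34.

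**Figure D1:**
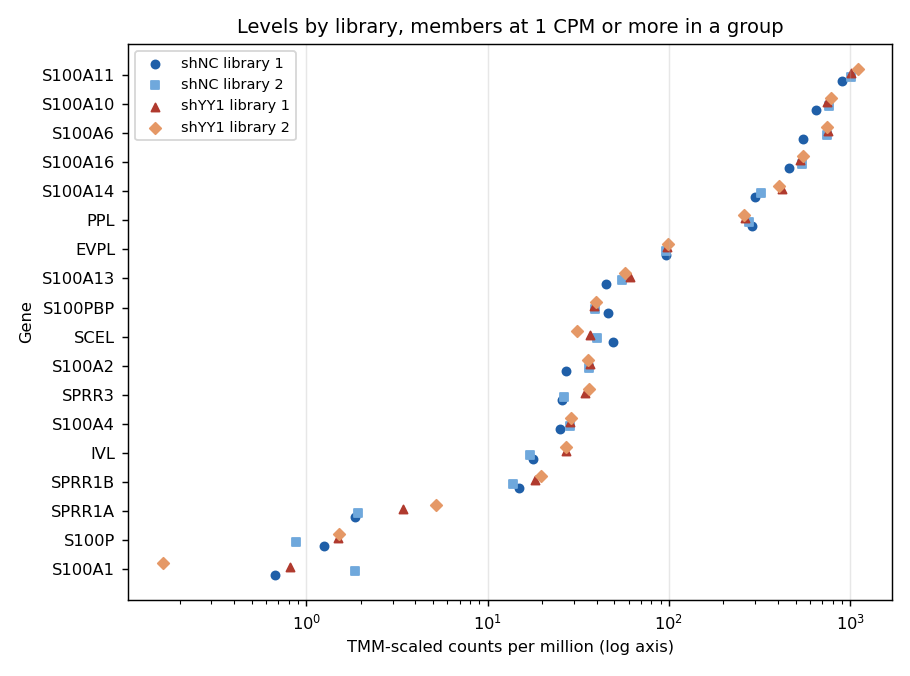
TMM-scaled CPM on a log axis for members at 1 CPM or more in a group, with 1 symbol per library. S100A11 lies highest, at 897 to 1100 CPM. The shYY1 symbols lie to the right of the shNC symbols for IVL, SPRR1A, SPRR1B, SPRR3 and S100A14.

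IVL (ENSG00000163207, chr1:152908546-152911886, plus strand) encodes involucrin, an early scaffold protein of the envelope. It had 1242 and 1243 counts in shNC and 1900 and 1839 in shYY1. The shYY1 libraries were both high and close together, far above both shNC libraries. IVL was 1.54-fold higher, at 27.0 ± 0.0829 CPM against 17.5 ± 0.355 (SD, n = 2 each). The log2 fold change was 0.63 ± 0.106 (SE), with a 95% interval of 0.38 to 0.87 and an adjusted p of 0.00837 by edgeR. IVL was called under all 14 alternative settings, with adjusted p values from 6.70e-05 to 0.0281, and it still passed with each library left out in turn (0.0118 to 0.0281). In such fits the lone library of a group is assumed to vary like the other group.

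The SPRR genes encode short cross-bridging proteins that transglutaminases join to other envelope proteins. SPRR3 (ENSG00000163209, chr1:153001747-153003855, plus strand) is the family member most typical of esophagus. Its counts were 1813 and 1897 in shNC and 2415 and 2461 in shYY1, so the groups were well apart. It was 1.35-fold higher, at 35.2 ± 1.17 CPM against 26.1 ± 0.291 (SD, n = 2 each), with a log2 fold change of 0.43 ± 0.10 (SE) and an adjusted p of 0.0291 by edgeR. The call was lost without shNC replicate 1, without shYY1 replicate 1 and without shYY1 replicate 2, at log2 fold changes of 0.42, 0.47 and 0.40. It was also lost, just above the threshold, when library totals replaced the TMM factors (log2 fold change 0.38, adjusted p = 0.05004 by edgeR). Over all alternatives its adjusted p by edgeR, DESeq2 or limma ran from 0.00361 to 0.192.

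SPRR1A (ENSG00000169474, chr1:152985231-152985500, plus strand) had 130 and 139 counts in shNC and 239 and 355 in shYY1. Both shYY1 libraries lay above both shNC libraries, and shYY1 replicate 2 was the highest by a wide margin. The level was 4.30 ± 1.27 CPM against 1.89 ± 0.050 (SD, n = 2 each). This 2.27-fold difference was the largest fold among the called members, with a log2 fold change of 1.18 ± 0.277 (SE) and an adjusted p of 0.0305 by edgeR. The call was lost without shNC replicate 1 (adjusted p = 0.102), without shNC replicate 2 (0.0597) and without shYY1 replicate 2 (0.219, log2 fold change 0.85). Over all alternatives its adjusted p ran from 0.00619 to 0.219.

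SPRR1B (ENSG00000169469, chr1:153031203-153032900, plus strand) had 1041 and 990 counts in shNC and 1289 and 1340 in shYY1, again with no overlap. Its log2 fold change was 0.41 ± 0.122 (SE), with a 95% interval of 0.13 to 0.69, but the adjusted p by edgeR was 0.0687. DESeq2 gave an adjusted p of 0.0403 and limma on log2(FPKM + 1) gave 0.0334, within a range of 0.0290 to 0.357 over all alternatives. The SPRR1A entry spans only 270 bases, over which its transcript is 96.3% identical to that of SPRR1B, so the split of reads between the pair is uncertain. The summed counts of the pair were 1171 and 1129 in shNC and 1528 and 1695 in shYY1, higher in both shYY1 libraries.

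The other SPRR members were near the detection limit. SPRR2F had 11, 10, 4 and 4 counts in shNC replicates 1 and 2 and shYY1 replicates 1 and 2, and SPRR2E had 0, 13, 3 and 0. SPRR2D had 0, 8, 9 and 4, SPRR2A had 6, 0, 0 and 0, and SPRR4 had 0, 5, 0 and 4. SPRR2B had 0 counts in every library, where a count of 3 would be 0.0416 to 0.0439 CPM. None of these 6 was tested, and the SPRR2 transcripts are 92.7% to 94.7% identical in pairs, so their few reads cannot be assigned with certainty. Summed over IVL and all SPRR members, the deposited FPKM (a level scaled to gene length and library total) were 50.4 and 46.7 in shNC and 65.9 and 72.1 in shYY1. The 2 shYY1 sums lay above both shNC sums. These sums consist almost wholly of IVL, SPRR1A, SPRR1B and SPRR3, so they are no separate result. The short SPRR1A entry alone went from 5.96 ± 0.0571 FPKM in shNC to 13.1 ± 3.63 in shYY1 (SD, n = 2 each). The suprabasal markers of the same differentiated layers include IVL, the only called gene of that list. Without IVL the other 6 summed to 60.4 and 61.3 CPM in shNC and 61.9 and 63.4 in shYY1. Of these, KRT13, KRT4 and MAL had log2 fold changes of -0.06, -0.42 and -0.29 and KRT10 of 0.12, none of which passed the test.

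**Figure D2:**
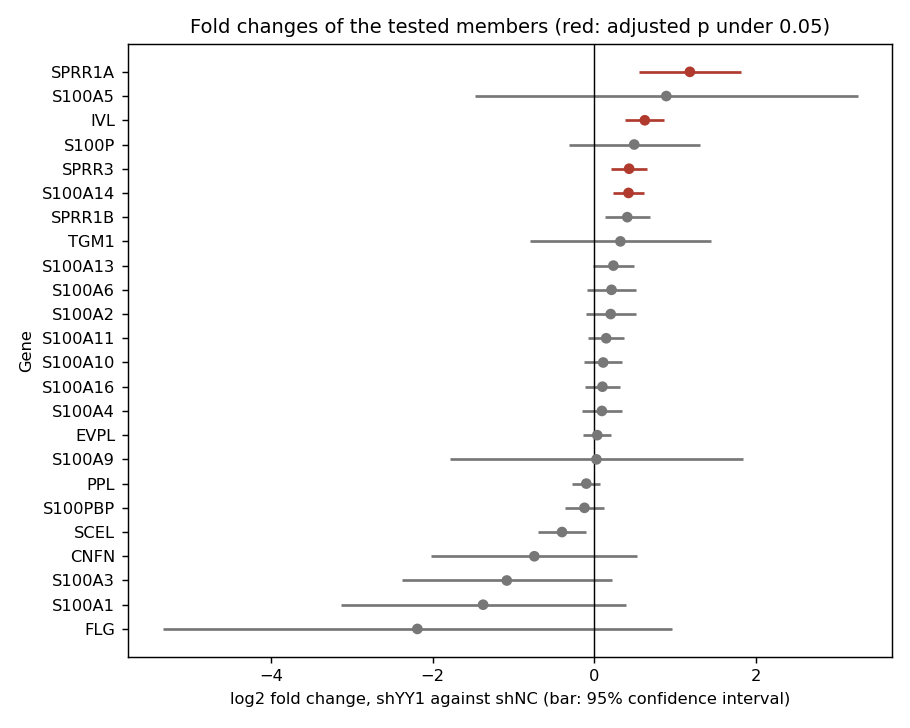
log2 fold change of shYY1 against shNC for the 24 tested members, with bars for the 95% confidence interval and red for an adjusted p under 0.05. The 4 called genes are all above 0, and the intervals of FLG, S100A5 and S100A9 are the widest, at counts under 30 in every library.

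S100A14 (ENSG00000189334, chr1:153614255-153616927, minus strand) encodes an epithelial S100 protein that has been linked to differentiation and migration of esophageal cells. It had 20795 and 23141 counts in shNC and 29688 and 27759 in shYY1. Both shYY1 libraries were high, and the gap between the groups exceeded the gap within either. The level was 414 ± 11.4 CPM against 309 ± 16.9 (SD, n = 2 each), 1.34-fold higher, with a log2 fold change of 0.42 ± 0.082 (SE) and an adjusted p of 0.0141 by edgeR. It was called in 12 of 14 alternatives, and not without shYY1 replicate 1 (adjusted p = 0.160) or without shYY1 replicate 2 (0.0995), in a range from 6.58e-06 to 0.160. S100A14 was the only one of the 13 tested S100 proteins to be called, or 7.69%, against 9.94% of all tested genes.

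By length-scaled level, S100 transcripts were among the most abundant of these cells. S100A11, a keratinocyte envelope component that binds annexin A1, had 1253 ± 54.5 FPKM in shNC and 1339 ± 56.2 in shYY1 (SD, n = 2 each) and ranked 18 of all 30716 genes by mean FPKM. S100A10, the light chain of the annexin A2 complex, ranked 44 with 596 ± 51.9 and 621 ± 8.71 FPKM, and S100A6 (calcyclin) ranked 45 with 568 ± 100.3 and 637 ± 14.2 FPKM. The levels of S100A10 and S100A6 did not differ beyond their spread, and the place of each next to the other in that order is not resolved. S100A16 (251 ± 18.5 FPKM in shNC) and S100A14 (207 ± 3.54) followed at ranks 119 and 131. S100A4, S100A13 and S100A2 lay lower, at 24.2 ± 1.32, 19.3 ± 2.10 and 17.4 ± 2.82 FPKM in shNC. The 14 S100 members took 0.306% and 0.349% of all counts in shNC and 0.354% and 0.363% in shYY1.

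The abundant S100 genes other than S100A14 were not called, and shNC replicate 1 was the lowest library for each of them. S100A6 had 38468 and 53716 counts in shNC and 52869 and 51131 in shYY1, or 549, 745, 752 and 749 CPM. In CPM the shYY1 libraries lay above both shNC libraries, but shNC replicate 2 was within a few CPM of them and only shNC replicate 1 stood far apart. The log2 fold change was 0.21 ± 0.132 (SE), with a 95% interval of -0.09 to 0.51 and an adjusted p of 0.367 by edgeR. S100A10 (644, 768, 745 and 780 CPM) and S100A16 (461, 540, 529 and 546 CPM) had the same order of libraries at the low end, with the groups overlapping. Their log2 fold changes were 0.11 ± 0.103 and 0.10 ± 0.0961 (SE), with adjusted p values of 0.573 and 0.583 by edgeR.

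S100A11 stood at 897 and 1006 CPM in shNC and 1009 and 1100 in shYY1. Its groups did not overlap, but shNC replicate 2 and shYY1 replicate 1 were nearly equal, and the log2 fold change was 0.15 ± 0.0972 (SE; adjusted p = 0.399 by edgeR). S100A13, which takes part in the release of fibroblast growth factor 1, stood at 44.9, 55.3, 60.6 and 57.4 CPM. Its log2 fold change was 0.24 ± 0.112 (SE; adjusted p = 0.231), again with no overlap but with shNC replicate 1 far below the rest. S100A2, a target of p53 family factors in squamous cells, had 27.2, 36.0, 36.8 and 36.0 CPM, and S100A4, linked to cell motility, had 25.1, 28.6, 28.6 and 28.7 CPM. For both, only shNC replicate 1 was low, and their log2 fold changes were 0.20 ± 0.136 and 0.10 ± 0.110 (SE; adjusted p = 0.409 and 0.668).

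The 8 S100 genes at 5 CPM or more all had a positive log2 fold change, from 0.10 to 0.42 with a median of 0.18, and shNC replicate 1 was the lowest library for 8 of 8. It was also the lowest for 36.5% of the 10588 genes at 5 CPM or more, and for 58.2% of the 2202 genes at 100 CPM or more. The difference between the control libraries moved with gene length. The median log2 ratio of shNC replicate 1 to shNC replicate 2 was -0.16 in 248 genes of at most 1000 exon bases, and 0.10 in 2370 genes of over 8000. The ratio of shYY1 replicate 1 to shYY1 replicate 2 moved in the same direction but less far, with medians of -0.07 and 0.02. In the same length classes the median log2 fold change of shYY1 against shNC was 0.10 and -0.06. The part of this length pattern in the values of the S100 genes, the SPRR genes and IVL was not tested.

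Leaving out either control library gave different S100 calls. Without shNC replicate 2, so that shNC replicate 1 was the only control, S100A2, S100A6, S100A10, S100A11, S100A13 and S100A16 were called as well, with log2 fold changes of 0.43, 0.46, 0.25, 0.24, 0.40 and 0.23. Their adjusted p values by edgeR were then 0.0282, 0.00102, 0.0117, 0.0300, 0.0160 and 0.0159. Without shNC replicate 1, none of those 6 was called, at log2 fold changes from -0.01 for S100A10 to 0.10 for S100A13 and adjusted p values from 0.550 to 0.966. S100A14 was called either way, at 0.49 (adjusted p = 0.00130) and 0.37 (0.00641).

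**Figure D3:**
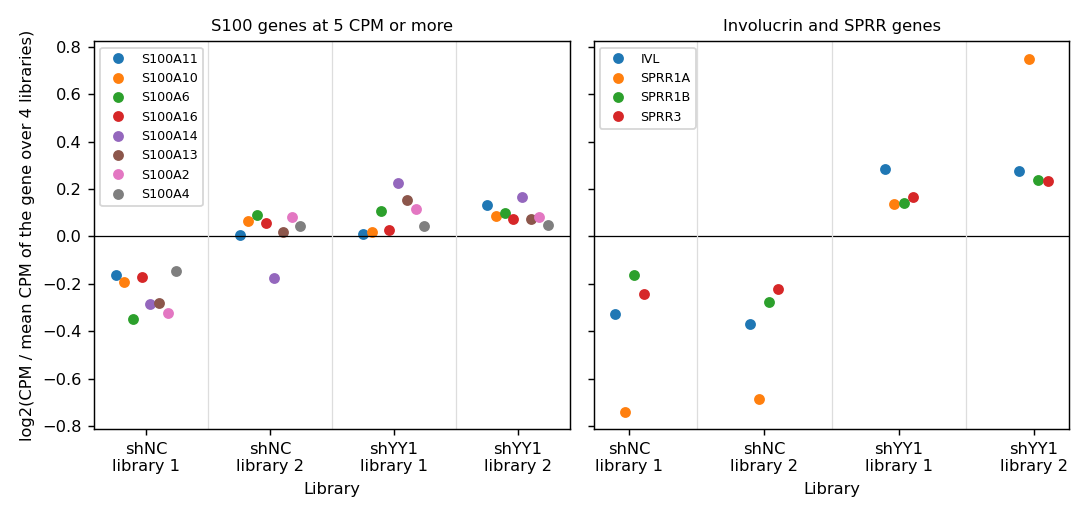
log2 of each library's CPM over the gene's mean of the 4 libraries, for the 8 S100 genes at 5 CPM or more (left) and for the tested SPRR genes with IVL (right). On the left all 8 points of shNC library 1 are below 0, and in shNC library 2 only S100A14 is. On the right both shNC libraries are below 0 and both shYY1 libraries above.

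The S100 genes of low count gave wide intervals. S100A1, better known from muscle and brain, had 47 and 134 counts in shNC and 57 and 11 in shYY1, so the groups overlapped. Its log2 fold change was -1.37 ± 0.764 (SE; adjusted p = 0.316 by edgeR), and without shYY1 replicate 1 it was -2.96 (adjusted p = 0.0111, in a range from 0.0111 to 0.816 over its alternatives). Its entry shares 3435 bases with that of S100A13 on the opposite strand. All 4114 bases of the S100A1 entry also lie within an AL162258 entry on the opposite strand. That entry had a mean of 7.50 CPM, against 0.875 for S100A1, and a log2 fold change of -1.18 ± 0.413 (SE, adjusted p = 0.148 by edgeR). The strand setting of the counting is not given in the sources used here. S100A3, a protein of hair cuticle, had 46, 50, 19 and 25 counts, lower in both shYY1 libraries, with a log2 fold change of -1.08 ± 0.573 (SE; adjusted p = 0.288). All 1930 bases of its entry lie within that of the far more abundant S100A4 on the same strand.

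S100P, a secreted S100 of gastrointestinal epithelia encoded on chromosome 4, had 88, 63, 105 and 103 counts and a log2 fold change of 0.50 ± 0.358 (SE; adjusted p = 0.450 by edgeR). S100A5 had 7, 13, 8 and 28 counts. Of the inflammatory S100 proteins, S100A9, the partner of S100A8 in calprotectin, had 25, 15, 25 and 15 counts, and S100A7 (psoriasin) had 0 in every library. The S100A9 groups held the same counts. Among the myeloid markers, 6 had an entry and their sum was 5.08 to 6.80 CPM. S100PBP had 3239, 2805, 2727 and 2699 counts with only shNC replicate 1 set apart (log2 fold change -0.12 ± 0.108, SE; adjusted p = 0.562).

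SCEL (chr13:77535674-77645263, plus strand) encodes sciellin, a precursor of the envelope, and was the abundant member lowest in shYY1 relative to shNC. It had 3446 and 2881 counts in shNC and 2575 and 2117 in shYY1. Both shYY1 libraries lay below both shNC libraries, but the libraries of each group were also far apart. The level was 33.8 ± 4.0 CPM against 44.6 ± 6.55 (SD, n = 2 each), with a log2 fold change of -0.40 ± 0.13 (SE), a 95% interval of -0.69 to -0.10 and an adjusted p of 0.0908 by edgeR. It passed the threshold in 4 of 14 alternatives, among them DESeq2 (0.0362), and its adjusted p ran from 0.0121 to 0.448.

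The plakins link the envelope to keratin filaments and desmosomes. PPL (periplakin) had 20063 and 19828 counts in shNC and 18511 and 17837 in shYY1, and EVPL (envoplakin) had 6769, 6914, 6897 and 6795. PPL was slightly lower in both shYY1 libraries. The raw EVPL counts of the groups overlapped, while in CPM EVPL was slightly higher in both shYY1 libraries (98.2 and 99.5 against 96.7 and 95.8 in shNC). Their log2 fold changes were -0.10 ± 0.076 (95% interval -0.27 to 0.07) and 0.04 ± 0.0761 (-0.13 to 0.21), with adjusted p values of 0.489 and 0.823 by edgeR. The EVPL value turned to -0.01 with library totals alone and on log2(FPKM + 1). Neither interval reached the 0.63 estimated for IVL. Their FPKM were 31.2 ± 2.08 and 28.1 ± 0.701 for PPL, and 11.2 ± 0.486 and 11.1 ± 0.102 for EVPL (shNC, then shYY1; SD, n = 2 each).

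The remaining envelope genes had few counts. TGM1, the membrane-bound transglutaminase of keratinocytes, had 33, 63, 69 and 48 counts in shNC replicates 1 and 2 and shYY1 replicates 1 and 2, and CNFN (cornifelin) had 82, 36, 30 and 39. Neither was called (log2 fold changes 0.32 ± 0.495 and -0.74 ± 0.561, SE; adjusted p = 0.758 and 0.475 by edgeR). FLG (filaggrin) had 17, 21, 8 and 0 counts, lower in both shYY1 libraries, with a 95% interval of the log2 fold change from -5.34 to 0.97 (adjusted p = 0.383). RPTN (repetin), LCE1E and LCE1F had 3, 3 and 2 counts in all 4 libraries together. At these depths a difference was not detectable.

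The 4 called members lie in the epidermal differentiation complex, taken here from S100A10 to S100A1 (chr1:151982915-153632039). That interval of 1.65 Mb held 47 entries of the table, 27 of them members. Of its 25 tested genes, 17 were members, with 4 higher and a median log2 fold change of 0.20, and 8 were other genes, with 0 called in either direction. Over all tested genes 9.94% were called, and 0 of 8 is not set apart from that share. Of these 8, only the AL162258 entry that spans S100A1 exceeded 2 CPM (10.4 in shNC and 4.60 in shYY1). A difference was hard to detect in the others, so they are no contrast to the members. IVL, SPRR1A and SPRR3 are neighbours in the middle of the interval with SPRR1B, and S100A14 lies near its far end beside S100A13 and S100A16. The other 7 members lie elsewhere, and 0 of their tested genes was called. With so few genes, that is not set apart from the 9.94% of all tested genes either, and S100P, TGM1 and CNFN had few counts. FLG, the SPRR2 genes and the LCE genes between those 2 groups of neighbours, or before them, gave few or no counts.

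**Figure D4:**
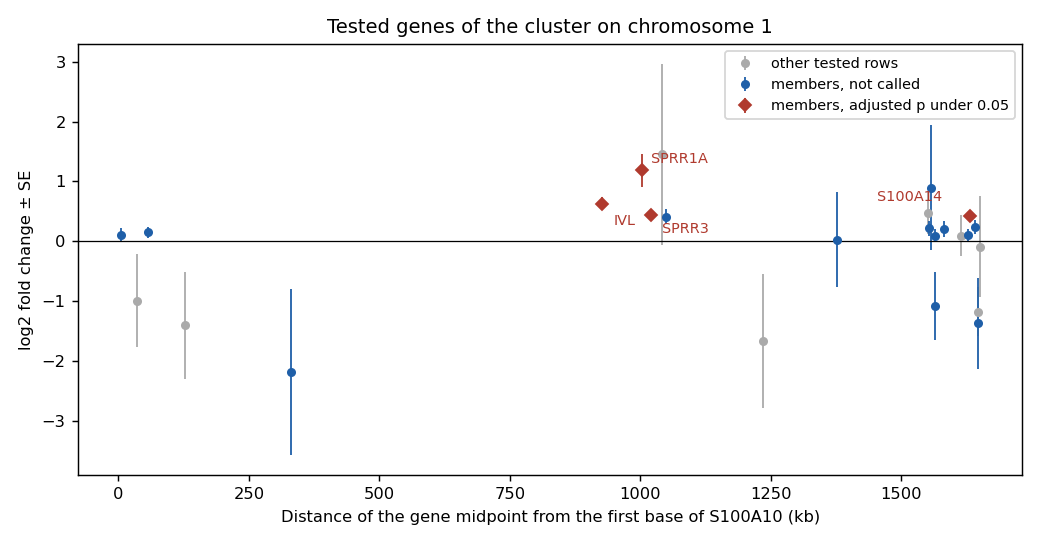
log2 fold change with its SE for the tested genes of the interval on chromosome 1, by distance from the start of S100A10 in kb. Red diamonds are the 4 called members, blue points the other members and grey points other genes; 3 of the called members lie close together near the middle.

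Other genes of envelope formation were read from 5 lists that hold no member, with 68 tested genes in all. Of these, 3 were higher and 2 lower, or 7.35% called, below the 9.94% of all tested genes, and the median log2 fold change was 0.10. The calls among them are therefore given as single genes and not as a result about the lists. In the list of envelope and junction partners and their regulators, 2 of 23 were higher. KLF4, a transcription factor of epidermal barrier formation, rose from 54.5 ± 3.11 to 84.0 ± 4.91 CPM (log2 fold change 0.62 ± 0.0899, SE; adjusted p = 0.00423 by edgeR). ANXA1 (annexin A1), an envelope substrate and the partner of S100A11, rose from 402 ± 8.88 to 545 ± 35.4 CPM (0.44 ± 0.085; adjusted p = 0.0145), though not without shYY1 replicate 1 (0.221) or replicate 2 (0.0660). Of the others, GRHL1 and GRHL3, grainyhead factors of barrier formation, were at 0.42 ± 0.128 and 0.61 ± 0.230 (adjusted p = 0.0749 and 0.138), and PRDM1 was at -0.43 ± 0.194 (0.212). The desmosomal genes DSP, JUP, PKP3, DSC2, DSC3 and DSG3 were all uncalled.

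Of 15 tested genes for cross-linking and barrier lipids, 1 rose and 2 fell. ELOVL4, which makes the very long fatty acids of barrier ceramides, fell from 10.2 ± 0.791 to 4.11 ± 0.204 CPM (log2 fold change -1.31 ± 0.176, SE; adjusted p = 0.00310 by edgeR). UGCG, the glucosylceramide synthase, fell from 121 ± 1.28 to 98.9 ± 2.57 CPM (-0.29 ± 0.0758; adjusted p = 0.0444). UGCG was not called without shYY1 replicate 1 (0.272) or replicate 2 (0.432), with no count filter (0.0542) or without robust estimation (0.0576). Among 10 tested proteases and inhibitors of the barrier, 0 were called. TMPRSS11E, a serine protease of squamous epithelium, came nearest at 0.58 ± 0.179 (adjusted p = 0.0758), and CST6, an inhibitor of cathepsins, was at -0.28 ± 0.135 (0.237). The 4 tested other genes of the epidermal differentiation complex gave 0 calls, with THEM5 at 0.56 ± 0.254 (0.209) and TCHH, trichohyalin, at -1.41 ± 0.897 (0.385).

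Of 18 tested partners and receptors of S100 proteins, only ANXA1 was called. EZR (ezrin) was at 0.31 ± 0.0906 (SE; adjusted p = 0.0641 by edgeR), and SUGT1, a partner of S100A6, was at -0.34 ± 0.0936 (0.0552). CACYBP, the calcyclin-binding protein, was at 0.16 ± 0.0752 (0.230). The receptors TLR4 and AGER had 7.13 ± 0.179 and 2.20 ± 0.770 CPM in shNC, and their log2 fold changes of -0.34 ± 0.177 and 0.56 ± 0.298 did not pass the test (adjusted p = 0.281 and 0.287). ANXA2, named for its binding to S100A10 and not by the rule for named genes, was at 2321 ± 257 and 2551 ± 70.5 CPM (0.14 ± 0.107; adjusted p = 0.493).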

How the data were processed

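RNA-seq of KYSE30 cells gave 4 libraries, grouped by their titles into 2 shNC and 2 shYY1. For every gene the authors deposited a whole-number count and an FPKM value per library, both used as deposited. Bowtie 0.12.2 and mouse builds are named, per the submitters' processing notes, which cannot describe a table of human genes. For this table the sources used here do not give an aligner, counter, build or strand setting. All 34 members overlap their GENCODE 29 positions on GRCh38 on the same strand, 13 of them with the same start and end. Columns were assigned through their names, with 0 left over.

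Members were chosen by gene name, and members, lists and motifs were chosen with earlier results of these data known. The filter filterByExpr, with a minimum count of 10 and a minimum total of 15, left 18035 genes. These went through the quasi-likelihood test of edgeR 4.0.16 in R 4.3.3. The fit used TMM factors of 0.980 to 1.04, robust estimation and no block, and Benjamini-Hochberg adjustment over all 18035 at 0.05. The fit had 2 residual degrees of freedom and a common biological coefficient of variation of 20.2%. The SE of a log2 fold change was derived from it and the F statistic. Intervals do not treat reads as independent molecules. Floors are the CPM of 3 counts and cover counting error only. Exon length is the union of GENCODE 29 exons. Named were YY1, members at 5 CPM or more or called, low members by name or count, and from each pathway list up to 4 genes per direction with the smallest adjusted p; 1 called gene of the pathway lists is counted but not reported here. Gene overlaps were taken from the table's coordinates, and transcript identity from local alignment of GENCODE 29 transcripts.

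Same-numbered libraries did not deviate together (r = 0.00395 over 18035 genes), so the numbers were not used as pairs. The alternatives were library totals alone, RLE factors, a filter at 5 CPM in 2 libraries, no filter, DESeq2 1.42.0, limma-trend (limma 3.58.1) on log2 CPM and on log2(FPKM + 1) and log2(FPKM + 0.1), no robust estimation, each library left out and the replicate block. Counts were also simulated for this comparison over 18035 genes with 200 changed. Recovery on these simulated counts was 20.5% at a 1.5-fold change, with 11 false calls, and 52.5% at 2-fold, with 19. At either fold the false calls were a larger share of all calls than the adjusted p threshold allows.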

Additional observations from a re-analysis of the deposited data

How the results depend on the processing

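Over all 18035 tested genes 1793 were called (910 higher, 883 lower). The count was 2711 with DESeq2 and 2902 with the replicate block, and 1024 to 3304 with a library left out. Of the members, 4 were called, 3 to 6 under the other alternatives and 1 to 10 with a library left out. The replicate block, with numbers whose deviations were uncorrelated over all tested genes, gave 6: the same 4 with SPRR1B and SCEL. SCEL was higher in replicate 1 than in replicate 2 of both groups, by a log2 ratio of 0.30 in shNC and 0.24 in shYY1. Of the listed pathway genes 5 were called, against 11 with DESeq2, 3 without robust estimation, 9 with the replicate block, and 3 to 19 with a library left out. Why the counts move was not tested. With library totals alone the higher share of all calls was 40.3%, against 50.8%, and 44.2% on log2(FPKM + 1). SPRR3 fell just outside the threshold with library totals alone. Members' single values kept direction and side of the threshold in 269 recomputed values, passed it newly in 15, lost it in 9 and changed sign in 12, all of genes not called. With library totals alone S100A9 was at -0.0276 and EVPL at -0.0118, and EVPL was at -0.0136 on log2(FPKM + 1) and -0.0146 on log2(FPKM + 0.1). With a library left out, the log2 fold change ranged from -0.00947 to 0.25 for S100A10, -0.00598 to 0.23 for S100A16, -0.36 to 0.47 for S100A9, -0.29 to 1.54 for S100A5, -0.23 to 0.0115 for S100PBP, -0.0506 to 0.84 for TGM1 and -1.22 to 0.00091 for CNFN. With 2 libraries a group and the recovery on simulated counts given above, changes of the size seen in most S100 genes can be missed. False calls on the simulated counts exceeded the share that the adjusted p threshold allows. Only 200 genes were changed there, against 1793 called in the data, so that share does not carry over to these calls. Calls close to the threshold are still less certain than their adjusted p values alone convey. SPRR3 passed with TMM factors and not with library totals alone, and the log2 fold change of SPRR1A ran from 0.85 to 1.46 with a library left out.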
